A study of Mus musculus with 8 samples.

Results

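Hearts with and without RNA of airway tissue were compared among the 8 heart libraries of a mouse (Mus musculus) study, all 8 of which entered. A library was called airway-positive when Scgb3a2, a secretoglobin of airway epithelium, stood at 10 CPM or more (CPM being a gene's counts scaled to a library total of 1000000), and airway-negative below that. The rule gave 5 airway-positive libraries (3 WT, replicates 1, 3 and 4, with 2 mutants, replicates 3 and 4) and 3 airway-negative libraries, WT replicate 2 and mutant replicates 1 and 2. All libraries were RNA sequencing libraries of dissected hearts at E18.5, late in gestation. Of these, 4 were WT and 4 were homozygous for M195I in CHD4 (CHD4 M195I/M195I), a remodeller of nucleosomes and the motor subunit of NuRD. The labels name no strain, litter, tissue-specific driver or dissection batch, and nothing besides the stage, the tissue and the genotype, while the column names of the library files call all 8 male. Gene counts cannot tell the alleles apart, so genotype is as labelled.

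The airways of the late fetal lung and the trachea are lined by a few kinds of epithelial cell. Secretory club cells release secretoglobins, mucins and antimicrobial proteins. Multiciliated cells, specified by the factor Foxj1, carry motile cilia whose axoneme is built from dynein arms, radial spokes and tektins. Basal cells hold keratins and the factor p63 and lie beneath the others. None of these cells belongs to the heart, but the trachea, bronchi and lung lie against it in the chest. In whole-heart RNA, fewer cells of a type and less RNA per cell cannot be told apart.

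Total counts lay between 18375951 and 21341235 per library. Libraries of a genotype differed beyond counting noise, with a chi-square per degree of freedom of 2.88 to 9.29 between pairs, so no library was a repeat of another. Haemoglobin genes took 0.123 to 0.370% and mitochondrial genes 4.40 to 4.95% of the counts. Mutant replicate 4 stood apart by alveolar transcripts, and mutant replicate 1 held a trace of airway transcripts although it was airway-negative. WT replicate 4 stood apart by its Y-linked transcripts: Ddx3y was at 35.5 CPM against 70.3 to 80.4 CPM in the others, and Eif2s3y at 30.5 against 68.2 to 73.9 CPM, while Xist was at 1.25 to 1.98 CPM in all 8. The defining genes of heart muscle were abundant in all 8: Actc1, the cardiac actin, was at 7948 to 10915 CPM in the airway-positive and 8069 to 11851 CPM in the airway-negative libraries.

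In what follows, values per library are in CPM and stand in 1 order, WT replicates 1, 3 and 4 followed by mutant replicates 3 and 4 for the airway-positive libraries, and WT replicate 2 and then mutant replicates 1 and 2 for the airway-negative ones. Because Scgb3a2 in these same libraries chose the groups, the airway contrast is a description of what travelled with it, and no level or count of that contrast serves as a test. Log2 fold changes of the airway contrast are airway-positive minus airway-negative with genotype as a covariate, and a gene is called where the fit's Benjamini-Hochberg adjusted p was under 0.05. Values after ± are standard errors of a log2 fold change, computed from it and the F statistic of the fit.

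Scgb3a2 (chromosome 18, 43764289 to 43767399, GRCm38) was at 385, 436, 176, 284 and 498 CPM in the airway-positive libraries and at 0.817, 6.48 and 0.328 CPM in the airway-negative ones. The lowest airway-positive library, WT replicate 4, stood far above the highest airway-negative library, mutant replicate 1, and these were the libraries just inside and just outside the threshold. Any threshold from 10 to 100 CPM gave the same 5 libraries, whereas 1 or 5 CPM added mutant replicate 1. Foxj1 (chromosome 11, 116330704 to 116335399), the factor that switches on motile cilia, was at 16.7, 15.1, 6.86, 14.8 and 29.0 CPM in the airway-positive libraries and at 0.625, 0.536 and 0.281 CPM in the airway-negative ones. Krt15 (chromosome 11, 100131758 to 100135928), a keratin of basal cells, was at 20.3, 19.5, 11.6, 21.1 and 20.6 CPM in the airway-positive libraries and at 0.144, 0.536 and 0.0937 CPM in the airway-negative ones. Epcam (chromosome 17, 87635979 to 87651106), an adhesion protein of nearly all epithelia, was at 5.76, 5.35, 3.16, 3.93 and 9.15 CPM in the airway-positive libraries and at 0, 0.214 and 0.187 CPM in the airway-negative ones. Foxj1, Krt15 and Epcam, which the rule did not use, each separated the same 5 libraries from the same 3 without overlap, as a ciliated, a basal and a general epithelial marker. Such a split in the higher direction held for 6.21% of all genes tested, and it is given here as a description. Divided at its own widest gap on the log scale, Foxj1 and Krt15 each gave the same 5 libraries, whereas Epcam gave 7, since its widest gap lay above WT replicate 2, the library with 0 counts. In 4 of the 5 airway-positive libraries Krt15 lay in a narrow band around 20 CPM, and WT replicate 4 was the low one, as it was for the other 3 markers.

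**Figure D1:**
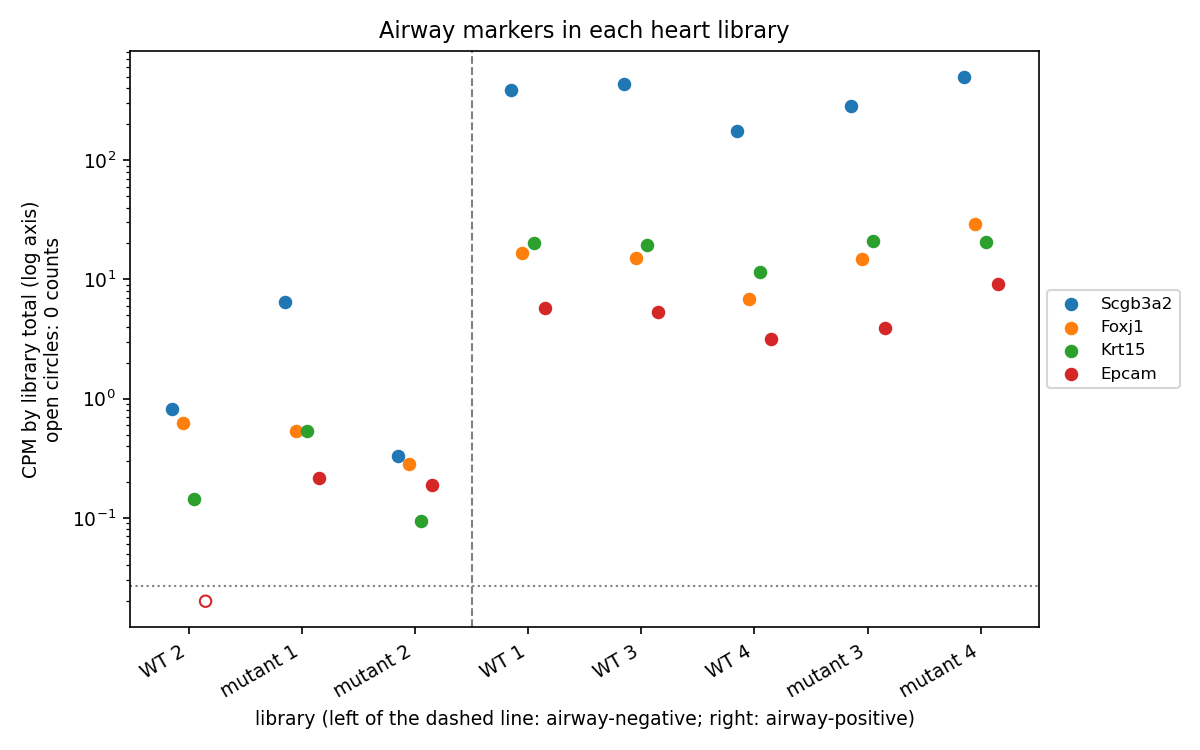
CPM of Scgb3a2, Foxj1, Krt15 and Epcam (log axis) in each of the 8 heart libraries, 1 point per gene and library, with the airway-negative libraries left of the dashed line and a 0 count as an open circle. Scgb3a2 sits at 176 CPM or more in the 5 airway-positive libraries and at 6.48 CPM or less in the others, and the other 3 markers part the same libraries.

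Across the genome, the airway contrast was small in mass and large in fold. Of 17087 genes tested, 725 were called higher in the airway-positive libraries, 4.24% of those tested, and 72 were called lower, 0.421%. Levels did not overlap between the groups for 1061 genes in the higher direction, 6.21% of those tested, and for 214 in the lower direction, 1.25%. At an unadjusted p under 0.05 there were 2401 genes. The genes called higher had a median log2 fold change of 2.11, and 263 of them reached 3 or more, against a median of -0.01 over all genes tested. The genes called lower had a median of -0.22, and 1 of them reached -0.5, a gene that also reached -1. Together, the genes called higher held 0.396 to 0.677% of all counts in the airway-positive libraries and 0.240 to 0.277% in the airway-negative ones. Scarce transcripts made up much of the set: 231 of the 725 had a mean under 1 CPM, and 28 had no count in any airway-negative library. Without WT replicate 2, the only airway-negative WT heart, 481 genes were called higher. Of the 72 genes named here as higher by rule, 33 lost the call without that library, 24 without mutant replicate 2 and 22 without mutant replicate 1, and 28 with limma-voom.

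Secretory genes were the most abundant airway transcripts. Of the 18 tested members of the secretory list, 16 were called higher and none lower, with a median log2 fold change of 6.07, or 5.66 with the gene lacking counts in the airway-negative libraries set to its lower bound. The number of calls depended on the tool: DESeq2 called 16 of the 18 and limma-voom 5. The list's summed level was 378 to 1126 CPM in the airway-positive and 18.3 to 32.5 CPM in the airway-negative libraries. Muc5b, the gel-forming mucin of airway mucus, was at 131, 123, 42.8, 89.0 and 147 CPM in the airway-positive libraries and at 0.288, 1.66 and 0.469 CPM in the airway-negative ones. Cbr2, a carbonyl reductase of club cells, was at 89.9, 90.6, 46.9, 78.2 and 152 CPM in the airway-positive libraries and at 1.35, 3.11 and 1.03 CPM in the airway-negative ones. Scgb3a1, a secretoglobin of the larger airways, was at 73.6, 86.4, 31.0, 57.0 and 74.6 CPM in the airway-positive libraries and at 0.336, 1.55 and 0.141 CPM in the airway-negative ones. For all of these the airway-positive libraries lay above the rest, with WT replicate 4 lowest. Reg3g, an antimicrobial lectin, was at 66.5, 69.4, 20.8, 39.8 and 79.2 CPM in the airway-positive libraries and at 0.192, 1.02 and 0 CPM in the airway-negative ones. Cyp2f2, the club cell cytochrome P450, was at 37.9, 36.4, 18.3, 35.9 and 62.1 CPM in the airway-positive libraries and at 0.144, 0.910 and 0 CPM in the airway-negative ones, and its exons overlap those of the predicted gene Gm15883. Between genes, per kilobase of exon, the mean level of Scgb3a2 was 404 CPM per kb in the airway-positive libraries, that of Scgb3a1 108, of Cbr2 68.9, of Scgb1a1 52.1 and of Muc5b 7.12 CPM per kb.

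The order of the club cell secretoglobins was that of Scgb3a2 first and Scgb1a1 well behind. Scgb1a1, the club cell protein that dominates mature airways, was at 14.4, 17.9, 9.20, 33.0 and 49.5 CPM in the airway-positive libraries and at 0.144, 0.803 and 0.0469 CPM in the airway-negative ones. Here the mutant libraries were the high ones, above all 3 airway-positive WT libraries, in contrast to Scgb3a2. Agr2, a disulfide isomerase needed for mucin folding, was at 7.16, 7.36, 2.23, 4.66 and 7.52 CPM in the airway-positive libraries and at 0, 0.107 and 0.0937 CPM in the airway-negative ones. Muc5ac, the mucin of goblet cells, was at 2.10, 1.62, 0.599, 1.36 and 2.13 CPM in the airway-positive libraries with 0 counts in the other 3, at least 31.9-fold higher against a floor of 3 counts over those 3 libraries. Muc16 and Bpifb1 were tested and not called. Muc16 was at 13.8 to 20.3 CPM in the airway-positive and 13.1 to 16.6 CPM in the airway-negative libraries. This mucin, which mesothelium also makes, was present in all hearts and its levels overlapped.

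Regulators of multiciliated cells parted into those found with airway RNA and those present in every heart. Of 13 tested, 9 were called higher and none lower, with a median log2 fold change of 3.94, or 3.24 with the genes lacking counts at their bounds. Mcidas, an early regulator of the multiciliation programme, was at 0.915, 1.23, 0.272, 0.942 and 1.53 CPM in the airway-positive libraries with 0 counts in the other 3, at least 20.1-fold higher. Its relative Gmnc was at 0.592, 0.442, 0.163, 0.681 and 0.445 CPM with 0 counts in the other 3, at least 9.44-fold higher. Both had no count in any airway-negative library and were scarce elsewhere. Deup1, which scaffolds the deuterosome where centrioles multiply, was at 3.82, 2.31, 1.20, 2.25 and 4.85 CPM in the airway-positive libraries and at 0.144, 0.161 and 0.281 CPM in the airway-negative ones. Ccno, a cyclin-like protein of the same step, was at 1.35, 1.18, 0.980, 1.88 and 2.72 CPM in the airway-positive libraries and at 0.336, 0.214 and 0.141 CPM in the airway-negative ones. Trp73, the p53 relative that acts upstream of Foxj1, was at 2.05, 1.91, 0.707, 1.94 and 3.51 CPM in the airway-positive libraries and at 0.0961, 0.107 and 0.0937 CPM in the airway-negative ones. Trp73 shares exon sequence with its antisense gene Trp73os, and whether reads were counted by strand is unknown here. The groups did not overlap for any of these. By contrast Rfx2 was at 15.5, 15.2, 14.9, 13.7 and 13.2 CPM in the airway-positive libraries and at 15.6, 14.0 and 14.2 CPM in the airway-negative ones, and Rfx3 at 12.8, 13.2, 13.8, 13.7 and 16.3 CPM in the airway-positive libraries and at 10.8, 14.4 and 13.7 CPM in the airway-negative ones. These are the factors that bind the X-box of ciliary genes, and their levels overlapped between the groups, as did those of E2f4 and Cep78.

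Nearly the whole axoneme list moved with airway RNA: 44 of 46 tested members were called higher and none lower, with a median log2 fold change of 4.00. DESeq2 called 45 of the 46 and limma-voom 31. Dnah5, an outer dynein arm heavy chain, was at 10.3, 11.9, 5.50, 11.3 and 20.5 CPM in the airway-positive libraries and at 0.192, 0.428 and 0.0469 CPM in the airway-negative ones. Dnah9, its partner in the distal cilium, was at 7.05, 7.36, 2.61, 7.38 and 14.2 CPM in the airway-positive libraries and at 0.0480, 0.0536 and 0 CPM in the airway-negative ones, and the airway-negative values rest on 2 counts, for a ratio of 238 (95% interval 65.7 to 1971) that covers counting error only. Lrrc23, a radial spoke protein, was at 10.3, 9.27, 4.14, 9.79 and 16.7 CPM in the airway-positive libraries and at 0.144, 0.321 and 0.187 CPM in the airway-negative ones. Mutant replicate 4 was the highest and WT replicate 4 the lowest airway-positive library for each of these. Rsph4a, a radial spoke head protein, was at 4.90, 4.66, 2.45, 4.61 and 7.92 CPM in the airway-positive libraries and at 0, 0.321 and 0 CPM in the airway-negative ones, and Hydin, of the central pair, at 9.47, 8.19, 3.92, 8.17 and 14.3 CPM in the airway-positive libraries and at 0.432, 0.750 and 0.562 CPM in the airway-negative ones. Sntn, of the ciliary tip, was at 1.35, 1.62, 0.871, 0.942 and 2.03 CPM with 0 counts in the airway-negative libraries, at least 27.9-fold higher. Other members had a large level in every heart and a small difference: Cfap43 was at 44.6, 46.3, 44.2, 40.8 and 50.1 CPM in the airway-positive libraries and at 36.9, 31.5 and 36.3 CPM in the airway-negative ones, a log2 fold change of 0.34 ± 0.07, and Tppp3 at 40.5, 39.8, 30.9, 33.8 and 37.9 CPM in the airway-positive libraries and at 25.6, 23.2 and 19.9 CPM in the airway-negative ones, a log2 fold change of 0.62 ± 0.10. Mlf1 and Ccdc39 were not called, and Mlf1 lay at 162 to 189 CPM and 167 to 182 CPM. The list's summed level was 344 to 600.1 CPM in the airway-positive and 260.3 to 276 CPM in the airway-negative libraries, since Mlf1, Cfap43 and Tppp3 carried most of it in the latter.

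The promoters of several of these genes hold a match to the X-box, and the 5 printed here show its palindrome beside the genes whose values are given above or below. The search used the RefSeq promoter table (GRCm38.p6, 250 bases before to 50 after a start), in which 11 of 13 regulators and 40 of 46 axoneme genes had an entry. The motif was GTNNCCNNGGNNAC, which reads the same on both strands, and a gene counted when any of its promoters held it. In the lines below, 5′ to 3′ on the gene's strand, the capitals mark the match.
Ccno: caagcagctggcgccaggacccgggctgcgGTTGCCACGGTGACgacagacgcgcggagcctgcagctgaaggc
Deup1: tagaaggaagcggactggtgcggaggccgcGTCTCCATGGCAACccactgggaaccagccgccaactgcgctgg
Ccdc151: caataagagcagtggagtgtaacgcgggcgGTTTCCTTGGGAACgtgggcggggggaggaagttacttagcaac
Cfap126: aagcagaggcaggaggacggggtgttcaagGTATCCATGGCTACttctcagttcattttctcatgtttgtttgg
Tekt4: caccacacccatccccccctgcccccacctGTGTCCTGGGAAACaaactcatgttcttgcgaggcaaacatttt
The windows are Ccno (chr13:112987553-112987626, plus strand, match at position -219 relative to the start), Deup1 (chr9:15627890-15627963, minus strand, match at position -87), Ccdc151 (chr9:22002625-22002698, minus strand, match at position -34), Cfap126 (chr1:171122933-171123006, plus strand, match at position -82) and Tekt4 (chr17:25471400-25471473, plus strand, match at position -160). Ccno and Deup1 act in centriole amplification, and the other 3 in or on the axoneme, with Ccdc151 needed for docking of the outer dynein arm. Ccdc151 was at 1.94, 2.50, 0.871, 2.62 and 3.32 CPM in the airway-positive libraries and at 0.0480, 0.214 and 0.141 CPM in the airway-negative ones. Tekt4, a tektin, was at 2.58, 2.85, 1.20, 2.98 and 3.46 CPM in the airway-positive libraries and at 0.384, 0.696 and 0.422 CPM in the airway-negative ones, and Cfap126 at 4.79, 3.97, 2.61, 4.19 and 7.03 CPM in the airway-positive libraries and at 0.721, 1.71 and 1.12 CPM in the airway-negative ones. All 3 were higher in each airway-positive library than in any airway-negative one.

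Matches to the X-box were found in 3 of 11 regulators (Ccno, Deup1 and Rfx2) and 7 of 40 axoneme genes, 17.5%. They were found in 583 of 27025 genes of the table, 2.16%, in 2.72% of the tested genes with an entry, and in 42 of 532 genes called higher, 7.89%. The half-site GTTGCCA, searched on both strands and overlapping the full motif in part, was found in 11 of 40 axoneme genes, 27.5%, in 12.8% of the genes called higher and in 5.02% of all genes of the table. No secretory gene (of 16) and no heart muscle gene (of 18) had either. Rfx2, which has a match, did not differ with airway RNA. A match is a string of letters in a window and was not tested as a binding site.

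Basal cell genes were fewer and less one-sided. Of 14 tested, 7 were called higher and none lower, with a median log2 fold change of 0.79. Krt5, the keratin partner that defines basal cells, was at 1.78, 1.42, 0.816, 1.26 and 1.58 CPM with 0 counts in the airway-negative libraries, at least 27.9-fold higher. Trp63, the gene of p63, was at 1.83, 0.981, 1.09, 0.628 and 0.990 CPM in the airway-positive libraries and at 0.480, 0.161 and 0.0937 CPM in the airway-negative ones. The levels of Trp63 did not overlap, but the lowest airway-positive library, mutant replicate 3, was close to WT replicate 2. Aqp3, a water and glycerol channel of basal cells, was at 1.99, 2.21, 0.599, 2.83 and 2.33 CPM in the airway-positive libraries and at 0.432, 0.214 and 0.422 CPM in the airway-negative ones. Krt14, Perp, Bcam and Snai2 were not called. Bcam, the laminin receptor, was at 551 to 636 CPM and 559.6 to 654 CPM, and it set the summed level of the list, 854 to 979 against 842 to 954 CPM, which overlapped.

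Genes shared by epithelia followed the markers, some from near 0 and some on top of a level in every heart. Of 31 tested, 26 were called higher and none lower, with a median log2 fold change of 2.15. DESeq2 called 24 of the 31 and limma-voom 18. Wfdc2, a secreted protease inhibitor homologue of airway epithelium, was at 30.7, 30.7, 17.4, 23.2 and 46.1 CPM in the airway-positive libraries and at 0.336, 0.696 and 0.281 CPM in the airway-negative ones. Cdh1, the epithelial cadherin, was at 14.3, 17.3, 6.91, 11.6 and 29.3 CPM in the airway-positive libraries and at 0.432, 0.268 and 0.422 CPM in the airway-negative ones. Esrp1, a splicing factor of epithelia, was at 1.94, 2.65, 1.09, 2.25 and 4.80 CPM in the airway-positive libraries and at 0, 0.107 and 0 CPM in the airway-negative ones, a count ratio of 78.7 (95% interval 21.6 to 653) on 2 airway-negative counts. These 3 were near 0 without airway RNA and highest in mutant replicate 4. Krt19, a simple keratin that the epicardium makes too, was at 53.3, 46.8, 41.7, 42.2 and 53.2 CPM in the airway-positive libraries and at 34.7, 26.5 and 26.3 CPM in the airway-negative ones, a log2 fold change of 0.65 ± 0.12. Krt8 was at 28.5, 25.1, 14.5, 28.1 and 39.6 CPM in the airway-positive libraries and at 10.7, 13.3 and 11.4 CPM in the airway-negative ones and was not called. Ezr, Myo5b, Marveld2 and Marveld3 were the other tested members not called.

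Transcription factors of lung and airway epithelium gave 11 of 17 tested members called higher and none lower, with a median log2 fold change of 2.99. Foxa1, a pioneer factor of foregut epithelium, was at 6.30, 6.28, 2.23, 3.87 and 10.2 CPM in the airway-positive libraries and at 0, 0 and 0.0469 CPM in the airway-negative ones, a count ratio of 356 (95% interval 63.7 to 14095) on 1 airway-negative count. Sox2, which marks the proximal airway, was at 3.28, 3.48, 1.90, 2.57 and 6.28 CPM in the airway-positive libraries and at 0, 0.214 and 0.141 CPM in the airway-negative ones. Ehf, an epithelial Ets factor, was at 6.14, 5.94, 2.72, 5.86 and 9.75 CPM in the airway-positive libraries and at 0.0480, 0.107 and 0.0937 CPM in the airway-negative ones. For each, the airway-positive libraries lay above the others. Nkx2-1, the factor that specifies lung and trachea, was at 3.66, 3.48, 0.925, 3.40 and 11.8 CPM in the airway-positive libraries and at 0, 0.107 and 0 CPM in the airway-negative ones and was not called, although its levels did not overlap. Mutant replicate 4 lay well above the next library in Nkx2-1. Irx3, Grhl1, Grhl3, Foxq1 and Pax9 were tested and not called.

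Of the ion and fluid transport genes, 2 of 12 tested were called higher and none lower, with a median log2 fold change of 0.70. These were the sodium channel subunits Scnn1a, at 6.62, 6.13, 5.12, 6.54 and 13.3 CPM in the airway-positive libraries and at 2.26, 2.25 and 2.01 CPM in the airway-negative ones, and Scnn1g, at 1.08, 0.932, 0.327, 1.20 and 3.81 CPM in the airway-positive libraries and at 0.0480, 0.0536 and 0 CPM in the airway-negative ones. Mutant replicate 4 was the high library for both. Ligands and hedgehog targets gave 4 of 8 called higher and none lower, with a median of 0.71. Shh, the epithelial hedgehog ligand, was at 1.45, 0.883, 0.435, 0.681 and 2.13 CPM in the airway-positive libraries and at 0, 0.0536 and 0 CPM in the airway-negative ones. Exons of Shh overlap those of non-coding genes. Wnt7b, an epithelial Wnt ligand of the lung, was at 1.83, 2.70, 1.36, 2.09 and 4.21 CPM in the airway-positive libraries and at 0.144, 0.161 and 0.141 CPM in the airway-negative ones. Hhip, a hedgehog-binding protein made by mesenchyme next to airway epithelium, was at 5.38, 3.83, 2.50, 4.08 and 11.2 CPM in the airway-positive libraries and at 0.0480, 0.696 and 0.469 CPM in the airway-negative ones, without overlap. Gli1, the hedgehog effector, was at 4.63, 5.05, 5.71, 4.71 and 7.42 CPM in the airway-positive libraries and at 2.16, 4.34 and 2.95 CPM in the airway-negative ones, and its exons overlap those of Arhgap9. Ptch1, the receptor, was at 50.7 to 58.3 CPM and 45.1 to 57.2 CPM and was not called.

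**Figure D2:**
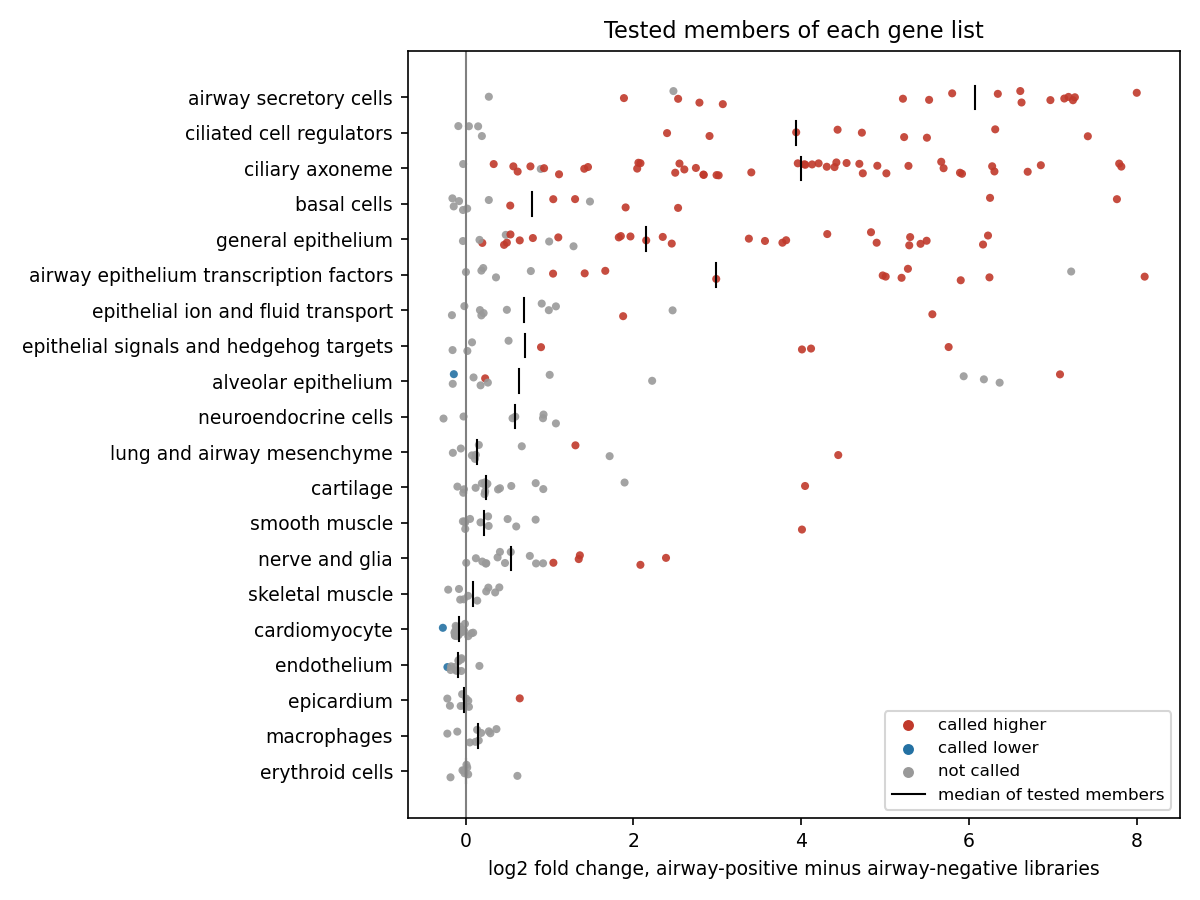
Fitted log2 fold change of every tested member of 20 gene lists, 1 point per gene, red where called higher, blue where called lower and grey where not called, with a bar at the list's median. The secretory and ciliary lists lie far to the right (medians of 6.07 and 4.00), and the heart muscle, endothelium and epicardium lists lie near 0; fitted values of genes with few or no counts in the airway-negative libraries depend on the prior count of the fit.

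Several alveolar genes, though not all, went with 1 library rather than with the airway group. Levels of 5 of the 16 listed genes did not overlap between the groups in the higher direction, against 6.21% of all genes tested. Of 12 tested, 2 were called higher (Sftpd, a surfactant protein, and Abca3, a lipid transporter) and 1 lower (Hopx, a cofactor of alveolar type 1 cells that heart muscle also expresses). With 1 library left out at a time, the call was lost in 5 fits for Sftpd, 6 for Abca3 and 6 for Hopx. DESeq2 called 4 of the 12 and limma-voom 1, and 7 had an unadjusted p under 0.05, against 14.1% of all genes. Hopx was at 279, 279, 269.8, 267 and 273 CPM in the airway-positive libraries and at 317, 280.5 and 276 CPM in the airway-negative ones, and its abundance sets most of the list's summed level outside mutant replicate 4. Its levels overlapped between the groups. Abca3 was at 42.7, 41.0, 45.4, 41.4 and 49.9 CPM in the airway-positive libraries and at 36.9, 37.2 and 37.4 CPM in the airway-negative ones, a level present in every heart. Sftpc (chromosome 14, 70520941 to 70524081), a surfactant protein of alveolar type 2 cells, was at 1.13, 0.736, 0.381, 4.08 and 124 CPM in the airway-positive libraries and at 0.0961, 2.03 and 0 CPM in the airway-negative ones. Mutant replicate 4 was alone in its high level, and the next library was mutant replicate 3. Slc34a2, the phosphate carrier of these cells, was at 0.161, 0.294, 0.0544, 0.942 and 26.3 CPM in the airway-positive libraries and at 0, 0.321 and 0.0469 CPM in the airway-negative ones. Cxcl15, a lung chemokine, was at 0.108, 0.442, 0.381, 0.471 and 13.3 CPM in the airway-positive libraries and at 0.0480, 0.321 and 0.0937 CPM in the airway-negative ones. Sftpa1, another surfactant protein, was at 0, 0.0491, 0, 0.209 and 8.51 CPM in the airway-positive libraries and at 0, 0.161 and 0 CPM in the airway-negative ones. Each of these again had its high level in mutant replicate 4 alone. Ager, a gene of alveolar type 1 cells, was at 3.28, 2.35, 2.94, 3.19 and 16.2 CPM in the airway-positive libraries and at 3.31, 3.37 and 2.30 CPM in the airway-negative ones, again with mutant replicate 4 as the high library.

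By a rule set after the values were seen, at least 2 CPM and at least 5 times every other library, 10 genes stood out in mutant replicate 4 and 0 in each of the other 7 libraries. They were Sftpc, Slc34a2, Cxcl15, Sftpa1, Cldn18, Lamp3, Napsa, Lyz1, Hc and Retnla. The first 7 belong to the alveolar list, Lyz1 is a lysozyme of alveolar type 2 cells in mice, Hc is complement component C5, and Retnla is a resistin-like secreted protein. Lyz1 was at 11.5 CPM there, and the next library was at 0.482 CPM. Hc was at 9.25 CPM and at most 0.431 CPM elsewhere. Retnla was at 3.17 CPM and at most 0.392 CPM elsewhere. Sftpb and Sftpd, surfactant genes that airway secretory cells also express, behaved otherwise. Sftpb was at 12.4, 13.6, 6.37, 11.3 and 55.4 CPM in the airway-positive libraries and at 0.192, 0.589 and 0.141 CPM in the airway-negative ones, and Sftpd at 2.69, 2.80, 1.36, 1.15 and 5.99 CPM in the airway-positive libraries and at 0, 0.0536 and 0 CPM in the airway-negative ones. Both were higher in each airway-positive library than in any airway-negative one, with mutant replicate 4 on top, and Sftpb was not called.

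**Figure D3:**
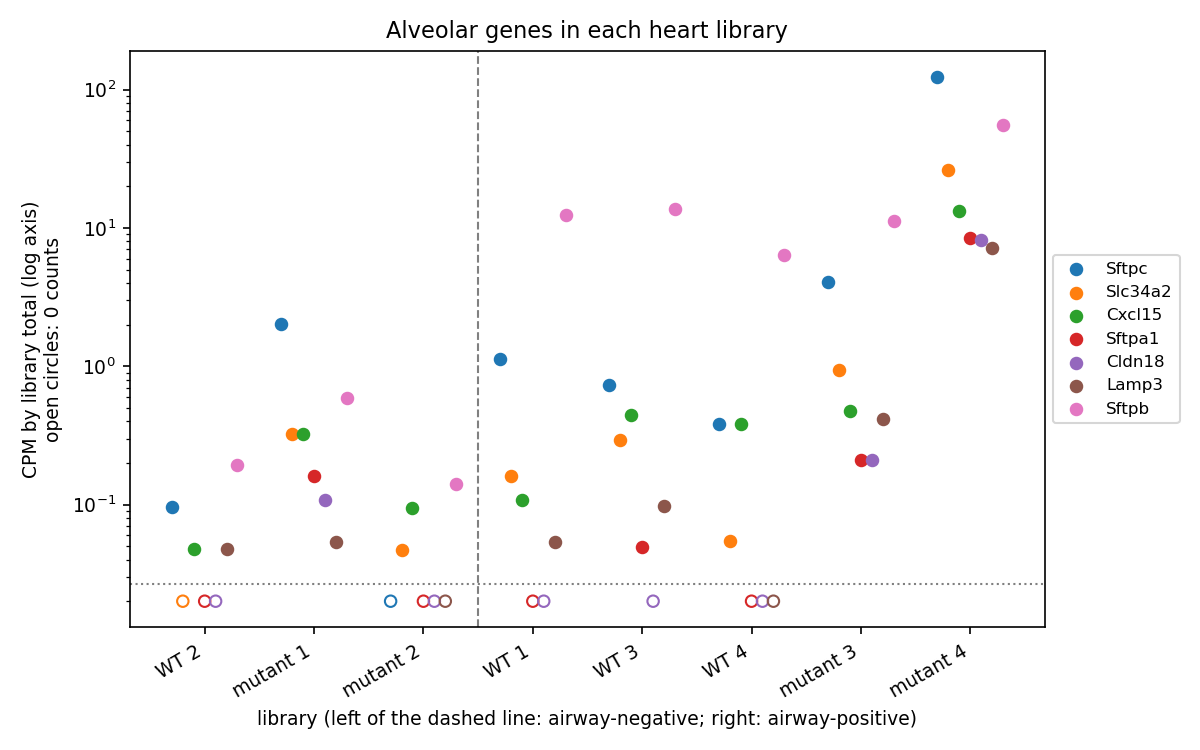
CPM (log axis) of 7 alveolar genes in each library, 1 point per gene and library, with 0 counts as open circles and the airway-negative libraries left of the dashed line. Sftpc, Slc34a2, Cxcl15, Sftpa1, Cldn18 and Lamp3 stand high in mutant replicate 4 alone, while Sftpb is at 6.37 CPM or more in all 5 airway-positive libraries.

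The 5 airway-positive libraries differed in how much airway RNA they held, and the lists kept a similar but not identical order. Each gene's level was taken as a percentage of that in mutant replicate 4. The genes were list members, called or not, with a mean under 1 CPM in the airway-negative libraries and of at least 1 CPM in the airway-positive ones. On this scale the 13 secretory genes had medians of 84.0% in WT replicate 1, 77.4% in WT replicate 3, 29.3% in WT replicate 4 and 60.7% in mutant replicate 3. The 32 axoneme genes stood at 59.8, 58.2, 27.3 and 55.8%. Basal cell genes, 5 of them, stood at 98.6, 94.9, 51.6 and 102%, which was the flattest profile. Airway transcription factors, 9 of them, stood at 52.2, 55.4, 24.6 and 40.8%, and the 9 scarce alveolar genes at 0.809, 1.37, 0.308 and 3.59%. WT replicate 4 had the least of each of these lists among the 5. Over the 725 genes called higher, mutant replicate 4 was the highest library for 587 and WT replicate 4 the lowest of the 5 for 539. These ranks describe libraries chosen by Scgb3a2, and no test of them was made.

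**Figure D4:**
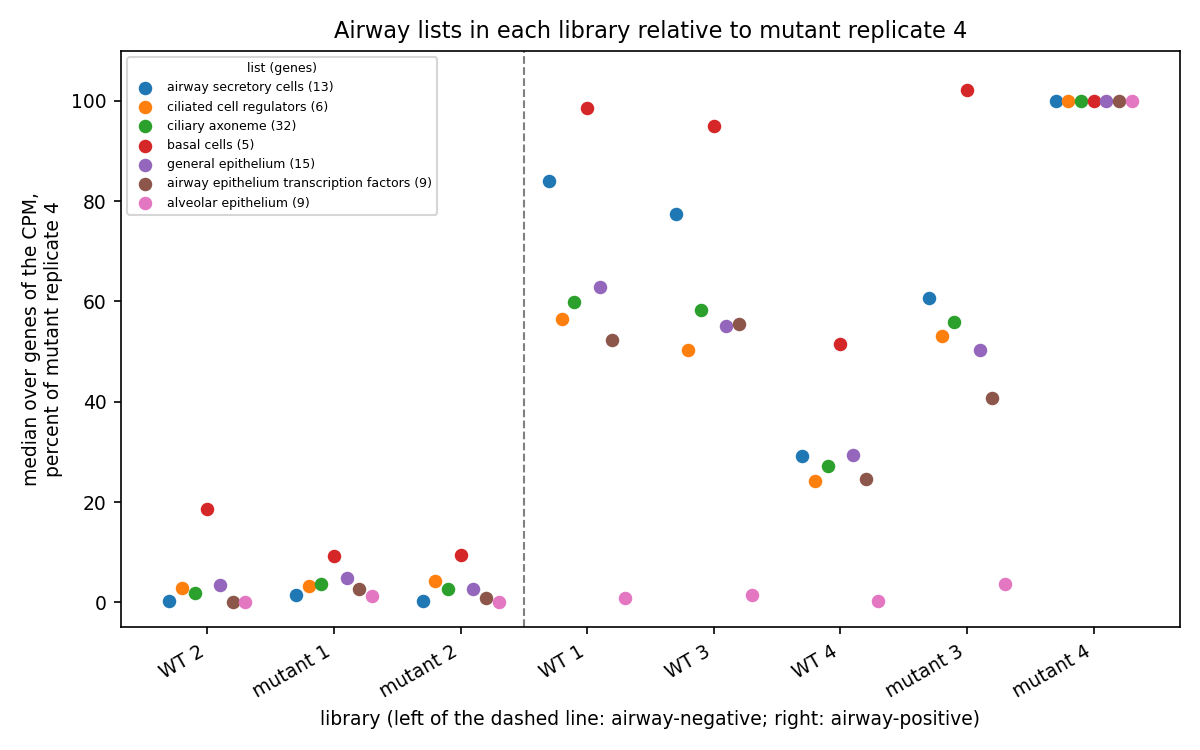
Median over the genes of a list of their CPM as a percentage of that in mutant replicate 4, for 7 lists and 8 libraries, 1 point per list and library. Secretory, ciliary and basal lists reach between 24.2 and 102% in the other airway-positive libraries, whereas the alveolar list is at 3.59% or less.

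Some ratios between airway genes kept within a narrow range over the 5 libraries, and others did not. Scgb3a2 per Foxj1 was 23.0, 29.0 and 25.7 in the airway-positive WT libraries and 19.2 and 17.2 in the mutants. Muc5b per Scgb3a2 was 0.340, 0.283, 0.244, 0.313 and 0.294. Thus the mucin followed the secretoglobin within 1.40 times over libraries in which Scgb3a2 itself ranged from 176 to 498 CPM. Krt15 per Foxj1 was 1.22, 1.30, 1.69, 1.42 and 0.712, with mutant replicate 4 low. Sftpc per Scgb3a2 was 0.00294, 0.00169, 0.00217, 0.0144 and 0.248, a range of 147 times.

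Mutant replicate 1, on the negative side of the threshold, held a trace of the abundant airway transcripts. Among the 9 genes called higher with a mean of at least 20 CPM in the airway-positive and under 3 CPM in the airway-negative libraries, mutant replicate 1 was the highest airway-negative library for all 9. They were Scgb3a2, Scgb3a1, Scgb1a1, Muc5b, Reg3g, Cbr2, Cyp2f2, Sec14l3 and Wfdc2, at 1.02% (Sec14l3) to 2.08% (Scgb3a1) of their level in mutant replicate 4. Over all 725 genes called higher, 349 had their highest airway-negative level in mutant replicate 1, 193 in mutant replicate 2 and 155 in WT replicate 2. With neither mutant replicate 1 nor mutant replicate 4 in the fit, 620 genes were called higher and 86 lower.

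Genes of neighbouring tissues were examined with lists of their own. Of 17 tested cartilage genes, 1 was called higher, Chad, at 12.9, 13.2, 6.69, 10.6 and 16.8 CPM in the airway-positive libraries and at 0.528, 1.18 and 0.609 CPM in the airway-negative ones. Chad encodes chondroadherin, and it was without overlap, but 1 of 17 is a share near the 4.24% of all genes. Col2a1, the main collagen of cartilage, was at 3.55, 9.71, 1.58, 3.87 and 11.5 CPM in the airway-positive libraries and at 1.20, 1.82 and 2.39 CPM in the airway-negative ones and was not called, and WT replicate 4 lay below mutant replicates 1 and 2. Of 10 tested mesenchymal genes of lung and trachea, 2 were called higher. Tbx4, a factor of lung and tracheal mesenchyme, was at 1.29, 1.18, 0.490, 1.15 and 3.91 CPM in the airway-positive libraries and at 0.0961, 0.161 and 0 CPM in the airway-negative ones. Foxf1, a hedgehog-responsive factor of foregut mesenchyme, was at 0.861, 1.18, 0.871, 2.15 and 3.66 CPM in the airway-positive libraries and at 0.576, 0.910 and 1.03 CPM in the airway-negative ones, and its airway-positive and airway-negative levels overlapped. Fgf10, the branching signal of lung mesenchyme, was at 1.13, 1.47, 2.23, 1.20 and 2.18 CPM in the airway-positive libraries and at 0.0480, 1.18 and 0.469 CPM in the airway-negative ones and was not called. In the smooth muscle list 1 of 12 tested was called, Hhip, again a single gene beside the 4.24% of all genes. Acta2 was at 769 to 917 CPM and 701 to 867 CPM. Myh11 was at 56.4, 68.9, 95.5, 64.5 and 69.2 CPM in the airway-positive libraries and at 34.1, 54.1 and 29.4 CPM in the airway-negative ones, without overlap, and was not called. An unadjusted p under 0.05 was found for 5 of 17 cartilage, 4 of 10 mesenchymal and 5 of 12 smooth muscle genes, against 14.1% of all genes. From these 3 lists DESeq2 called 2, 3 and 3 genes, and limma-voom 1, 1 and 0.

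Nerve genes gave 5 of 17 tested called higher and none lower, with a median log2 fold change of 0.54. Prph, peripherin of peripheral neurons, was at 3.39, 6.62, 7.67, 5.76 and 7.82 CPM in the airway-positive libraries and at 0.913, 2.25 and 1.55 CPM in the airway-negative ones. Tubb3, the neuronal tubulin, was at 4.74, 5.45, 4.52, 5.34 and 7.03 CPM in the airway-positive libraries and at 2.45, 1.98 and 1.97 CPM in the airway-negative ones. Slc18a3, the vesicular acetylcholine transporter, was at 0.431, 1.08, 0.707, 0.419 and 0.940 CPM in the airway-positive libraries and at 0.0480, 0.161 and 0.187 CPM in the airway-negative ones. In Prph, mutant replicate 4 was the highest library and WT replicate 4, lowest in the 4 airway markers, was the second highest. Neuroendocrine genes gave 0 of 7 tested called in either direction, squamous genes 1 of 4 (Krt4, at 0.700, 1.18, 0.762, 1.47 and 1.34 CPM in the airway-positive libraries and at 0, 0 and 0.0469 CPM in the airway-negative ones) and thymus genes 1 of 5 (Tbata, under 1 CPM in all libraries). Of the thymus list, Rag1, the recombinase of lymphocyte receptors, was at 0.0538, 1.18, 0.272, 0.0523 and 1.44 CPM in the airway-positive libraries and at 0, 0.161 and 0.0937 CPM in the airway-negative ones and was not called, with WT replicate 3 and mutant replicate 4 as the high libraries. Skeletal muscle (0 of 10), fat (0 of 2), thyroid (0 of 1), macrophage (0 of 10), lymphatic (0 of 6), erythroid (0 of 8) and lymphocyte (0 of 2) lists had no called gene. With the neuroendocrine and sex lists, 9 lists with 51 tested members had no call by edgeR. Of these 51, 6 had an unadjusted p under 0.05 (Syp, Scg3, Myh8, Reln, Mmrn1 and Mrc1), 1 was called by DESeq2 and 0 by limma-voom.

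Differences in heart genes were small. Of 20 tested heart muscle genes none was called higher and 1 lower, with a median log2 fold change of -0.08, and their summed level was 67282 to 77682 CPM in the airway-positive and 68596 to 81677 CPM in the airway-negative libraries. The one called lower was Nppa, atrial natriuretic peptide, at 1709, 1628, 1827, 1643 and 1561 CPM in the airway-positive libraries and at 2103, 1759 and 1945 CPM in the airway-negative ones, a log2 fold change of -0.27 ± 0.05, and WT replicate 4 overlapped mutant replicate 1. DESeq2 called 4 of the 20 and limma-voom 3, and 4 had an unadjusted p under 0.05, against 14.1% of all genes. Levels of 2 of the 20 did not overlap in the lower direction, against 1.25% of all genes tested. Over all genes tested, 0.421% were called lower. Endothelium gave 1 of 12 lower, Emcn, at 58.8, 49.0, 56.1, 49.8 and 48.6 CPM in the airway-positive libraries and at 65.0, 55.1 and 53.2 CPM in the airway-negative ones, and its levels overlapped. Of the 12 endothelial genes, 6 had an unadjusted p under 0.05, against 14.1% of all genes, and DESeq2 and limma-voom called 1 each. Epicardium gave 1 of 9 higher, Krt19, which general epithelium shares. Upk3b and Msln, defining genes of the epicardium, were at 67.5 to 97.4 CPM and 85.1 to 89.4 CPM, and at 47.5 to 81.4 CPM and 56.4 to 69.1 CPM, in both cases with overlap.

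Most of the 72 genes called lower had small differences, and most were also called for genotype. Of these 72, 52 were also called for genotype in the same fit, 51 of them lower in the mutants, and 15 had levels that did not overlap between the airway groups. Over all genes tested, 15.6% were called for genotype, 9.08% were called lower in the mutants, and 1.25% did not overlap in the lower direction. The airway and genotype calls of the same fit were not independent, since WT replicate 2 was the only airway-negative WT library. Of the 725 genes called higher with airway RNA, 63 were called for genotype. Among the 10 lower genes named below, Dio2 and Sox7 were called for genotype and the others were not. Without the genotype term 4 genes were called lower, and with library totals as the scaling 38. Without WT replicate 3, mutant replicate 2 or mutant replicate 4, the count was 38, 42 and 39. The largest by the naming rule was Dio2, the deiodinase that activates thyroid hormone, at 9.26, 8.39, 9.14, 5.60 and 6.09 CPM in the airway-positive libraries and at 9.75, 9.64 and 10.1 CPM in the airway-negative ones, a log2 fold change of -0.50 ± 0.12. Npy1r, a neuropeptide Y receptor, was at 11.6, 10.5, 10.4, 10.2 and 10.3 CPM in the airway-positive libraries and at 13.0, 13.8 and 13.9 CPM in the airway-negative ones, a log2 fold change of -0.39 ± 0.09. Sox7, an endothelial factor, was at 39.8, 41.6, 41.8, 36.7 and 41.4 CPM in the airway-positive libraries and at 48.6, 44.5 and 44.7 CPM in the airway-negative ones, a log2 fold change of -0.24 ± 0.05. Clu, the chaperone clusterin, was at 111, 118, 122, 127 and 126 CPM in the airway-positive libraries and at 134, 145 and 145 CPM in the airway-negative ones, a log2 fold change of -0.22 ± 0.04. In each of these the 3 airway-negative libraries were the high ones and the groups did not overlap. Scd4, Cxcr4, Abcg1, Etv1, Scarf1 and Bex4 were the other 6, with log2 fold changes from -0.41 to -0.22.

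Most genes called higher stood outside the lists: 131 of 725 were in any of the 27 lists and 122 in the epithelial ones. Gene families named by symbol gave a view of the remainder. Of 30 tested Cfap genes, named for cilia and flagella, 25 were called higher, and of 15 Dnah genes, the axonemal dynein heavy chains, 10 were. Rsph radial spoke genes gave 5 of 7, Tekt tektins 3 of 4 and claudins 6 of 12. The Ift genes, whose products carry cargo in primary and motile cilia alike, gave 0 of 14 by edgeR, with 3 at an unadjusted p under 0.05 and 0 called by DESeq2 or limma-voom. Ribosomal protein genes gave 0 of 46 (Rps) and 0 of 52 (Rpl) by edgeR. Of these, 21 and 26 had an unadjusted p under 0.05, against 14.1% of all genes in either direction, and 0 of them were higher. Both families thus leaned lower, with median log2 fold changes of -0.09 and -0.08. DESeq2 called 2 of each family and limma-voom 1 and 0. Collagens gave 2 of 48, Col7a1 and Col17a1, a share near the 4.24% called higher over all genes. The genes named next were chosen after their values were seen, for a high level. Sec14l3, a lipid-binding protein of airway cells, was at 32.9, 31.0, 13.4, 23.8 and 52.6 CPM in the airway-positive libraries and at 0.0480, 0.536 and 0.0469 CPM in the airway-negative ones. Hp, haptoglobin, was at 13.6, 11.8, 7.89, 11.9 and 25.6 CPM in the airway-positive libraries and at 0.865, 1.23 and 0.515 CPM in the airway-negative ones. Aldh1a1, a retinaldehyde dehydrogenase, was at 28.4, 27.6, 14.8, 28.7 and 47.9 CPM in the airway-positive libraries and at 6.01, 4.50 and 3.94 CPM in the airway-negative ones. Dnah10, an inner arm dynein, was at 15.9, 16.3, 6.15, 13.8 and 22.3 CPM in the airway-positive libraries and at 0.576, 0.696 and 0.515 CPM in the airway-negative ones. Each was higher in every airway-positive library than in any airway-negative one, and Aldh1a1 had a level in all hearts.

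Genotype was the comparison the groups were not chosen for, and it was tested with the airway group as a covariate and again within the 5 airway-positive libraries. Log2 fold changes here are mutant minus WT, and the adjusted p-values, from edgeR, measure the spread between these samples, since nothing says that each heart came from a separate litter. With the covariate 1120 genes were higher in the mutants, 6.55% of 17087 tested, and 1552 were lower, 9.08%. With library totals as the scaling these were 2295 and 989, so the share of higher calls depends on the scaling. Without WT replicate 2 they were 534 and 962. Without the airway term 942 were higher and 1226 lower, and 2092 genes were called with and without the term, 78.3% of the calls with it and 96.5% of the calls without it. Within the airway-positive libraries, 3 WT against 2 mutant, 609 genes were higher, 3.63% of 16784 tested, and 1062 were lower, 6.33%. There library totals gave 1247 and 711, DESeq2 gave 344 and 784, and leaving out WT replicate 1 gave 294 and 627. Of the 1671 genes called within, 1487 were also called with the covariate, all in the same direction, which is 89.0% of the former and 55.7% of the latter calls. The 2 fits share their airway-positive libraries.

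Of the 182 tested genes of the epithelial lists, 19 were called for genotype with the covariate, 11 higher and 8 lower in the mutants, or 10.4% against 15.6% of all genes tested. The 8 lower were Perp, Lamb3, Bcam, Slc4a4, Kcne3, Etv5, Hopx and Rfx2, and none of them was called higher with airway RNA. Of the 122 epithelial list genes called higher with airway RNA, 5 were called for genotype with the covariate, 4.10%, and 4 within the airway-positive libraries, 3.28% against 9.96% of all genes tested there, all 4 higher in the mutants. Their median genotype log2 fold change was 0.51 with the covariate and 0.55 within, against 0.01 and 0.00 over all genes tested, and it was above 0 for 115 and 112 of the 122. The mutant side of the within comparison is made of mutant replicate 4, the library with the most airway RNA, and mutant replicate 3, and the WT side includes WT replicate 4, with the least. The part of these amounts in the genotype values was not tested. Called in both fits were Dnaic2, a dynein intermediate chain (0.83 ± 0.20, adjusted p = 0.0164 within), Tekt1, a tektin (0.72 ± 0.22, adjusted p = 0.0454), and Spint2, a protease inhibitor of epithelia (0.24 ± 0.06, adjusted p = 0.0245). Ccno was called within (0.92 ± 0.28, adjusted p = 0.0454) and not with the covariate (adjusted p = 0.134).

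Scgb1a1 had the largest genotype difference of the 5 called with the covariate, while the channel gene Scnn1g had a larger value and was not called (1.56 ± 0.51, adjusted p = 0.0637). Scgb1a1 was called with the covariate (1.51 ± 0.34, adjusted p = 0.0390) and not within the airway-positive libraries (1.51 ± 0.36, adjusted p = 0.125). Scgb1a1 per Scgb3a2 was 0.0374, 0.0410 and 0.0523 in the airway-positive WT libraries and 0.116 and 0.0993 in the mutants, so the mutant libraries had the higher ratio without overlap. This ratio was chosen after its values were seen and has no test. Elf5, an Ets factor of distal lung and secretory cells, was called with the covariate (1.31 ± 0.38, adjusted p = 0.0291) and not within (1.28 ± 0.42, adjusted p = 0.0859). Foxj1 (0.71 ± 0.55, adjusted p = 0.558) was not called for genotype within the airway-positive libraries.

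**Figure D5:**
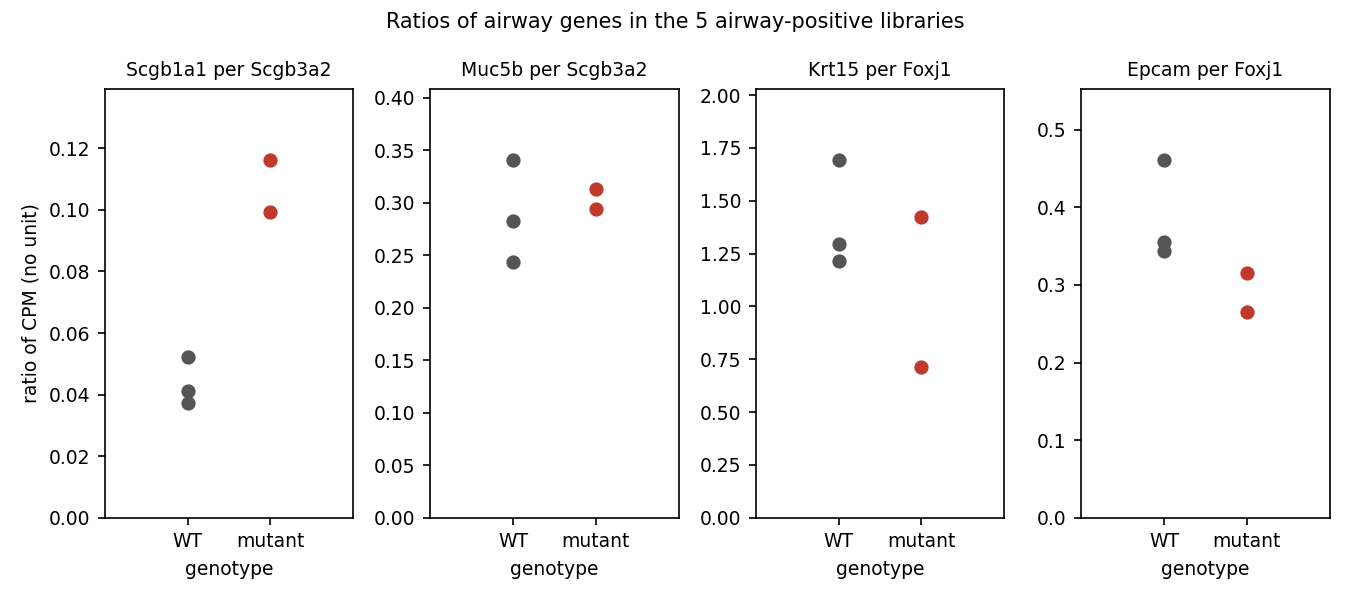
Ratios of CPM between airway genes in the 5 airway-positive libraries (3 WT, 2 mutant), 1 point per library, each panel with its own axis from 0. Scgb1a1 per Scgb3a2 is 0.0993 and 0.116 in the mutants against 0.0374 to 0.0523 in WT, while Muc5b per Scgb3a2 overlaps between the genotypes.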

How the data were processed

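Per the submitters' processing notes, the tools were Trimmomatic 0.36 for trimming, STAR 2.5.2b for alignment to GRCm38 (mm10) and featureCounts of Subread 1.5.2 for counting. The authors deposited raw counts per gene, both as library files and as a joint table, and 0 values differed between the 2 sources. The column name in each library file starts with "Male". Libraries were made from Trizol RNA with a TruSeq kit, per the labels' protocols. The counting strand and gene annotation were not given in the sources used here. Of 49315 genes counted, GENCODE M21 gave 48970 a symbol. Of the listed symbols, 1 (Ahsp) was not matched.

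The 8 libraries were grouped by Scgb3a2 at 10 CPM of the library total. Genes passed filterByExpr (minimum count 10), counts were scaled by TMM, and genotype and airway group were fitted together with the robust quasi-likelihood method of edgeR 4.0.16 in R 4.3.3. Calls were made at a Benjamini-Hochberg adjusted p under 0.05 over all genes tested. Levels are CPM by library total, without TMM. The smallest level that 3 counts over the airway-negative libraries allow was 0.0493 CPM. Count ratios have 95% intervals for counting error only. The members and gene lists were chosen with earlier results of these data known. Named genes were the 4 markers, the 25 largest higher and 10 largest lower changes (called, mean of 1 CPM or more, groups not overlapping), and for each list at most 6 called genes a direction by mean CPM. Unnamed gene models were left out of the largest changes. Other genes are named as list members, for overlapping exons, or after their values were seen, as stated there. Alternatives were DESeq2 1.42.0, limma 3.58.1 with voom, RLE, upper quartile and library-total scaling, other filters, other thresholds, a non-robust fit, no genotype term, no airway term, log2 Scgb3a2 as covariate, each library left out, and the replicate number as a block. The fit without both mutant replicates 1 and 4 was added after the data were examined.

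The airway fit was tested on simulated counts. On simulated data of 16945 genes for the airway contrast, edgeR recovered 70% of the genes given a 1.25-fold change, 78% at 1.5-fold, 90% at 2-fold and 96% at 3-fold, while 1.76% of what it called had been left unchanged. Every simulated gene had the same variation between libraries, close to the real fit's common coefficient of variation of 0.0546. Genes that spread further within the airway-positive group, as Scgb3a2 did (176 to 498 CPM), were not simulated. The recovery rates do not hold for such genes.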

Additional observations from a re-analysis of the deposited data

Results flagged for a closer look

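Dixon's test for a single far value was run on 111 sets of 5 levels, those of the airway-positive libraries for each list and for the genes named by rule. Of these sets 8 had a far value, where chance gives about 1 in 20, and in 5 of the 8 it was that of mutant replicate 4. The sets were not independent, because all used the same 5 libraries and the list sums held named genes. The repeats of mutant replicate 4 are therefore a description. A further 12 alveolar and lung genes were picked after their levels were seen and are given as a description. The summed level of the alveolar list was 679 CPM there, against 398 to 420 CPM in the other 4 airway-positive libraries. Of the 12 genes picked for their high level in that library, Sftpc was at 124 CPM, Slc34a2 at 26.3, Ager at 16.2, Cxcl15 at 13.3, Nkx2-1 at 11.8, Lyz1 at 11.5, Hc at 9.25, Sftpa1 at 8.51, Cldn18 at 8.21, Lamp3 at 7.18, Napsa at 3.71 and Retnla at 3.17 CPM. Genes named by rule with a far value in mutant replicate 4 were the sodium channel genes Scnn1a at 13.3 CPM and Scnn1g at 3.81 CPM, the mesenchymal factor Tbx4 at 3.91 CPM and the mucin Muc20 at 3.17 CPM.

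Krt15 was at 11.6 CPM in WT replicate 4, below the narrow band of the other 4 airway-positive libraries. WT replicate 4 was also the lowest of the 5 for Scgb3a2, Foxj1 and Epcam, and the library with the low Y-linked transcripts. Whether these features are related was not tested. Npy1r was at 11.6 CPM in WT replicate 1, above the other 4. Cxcr4, a chemokine receptor, was at 7.22 CPM in mutant replicate 3, below the other 4.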

How the results depend on the processing

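Under every scaling, filter and tool run, the median log2 fold change of all genes stayed within 0.1 of 0. Genes called higher with airway RNA numbered 725, and 481 to 798 with 1 library left out. Genes called lower numbered 72, and 38 to 106 with 1 library left out. They were 38 with library totals, 42 with upper quartile scaling, 170 without a filter, 4 without the genotype term, and 15 and 156 at adjusted p under 0.01 and 0.10. The genotype calls with the airway covariate were 1120 higher and 1552 lower, and 534 to 1187 and 962 to 1543 with 1 library left out. They were 2295 higher and 989 lower with library totals. At adjusted p under 0.01 they were 523 and 937, and at 0.10 there were 1737 higher. Within the airway-positive libraries the genotype calls were 609 and 1062, and 294 to 474 and 627 to 967 with 1 library left out. They were 344 higher with DESeq2, 1247 higher with library totals, 243 and 579 at adjusted p under 0.01, and 982 higher at 0.10. The cause of these shifts was not tested, apart from the thresholds' own effect.

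The replicate numbers were not taken as pairs, since the labels give them no meaning. The deviations of the pairs correlated at -0.52, 0.77, 0.56 and 0.10, so not every pair lay above 0.1. Of the 4 WT libraries, 2 (replicates 2 and 4) correlated best with their own number. Only genotype was removed from these deviations, so the airway group stayed in them. Replicate 1 joins an airway-positive WT and an airway-negative mutant library, while the other numbers share their airway group. The correlations therefore cannot decide whether the numbers pair the libraries. The airway contrast of a fit with the block depends on replicate 1, the only number that differs in group. With a replicate block the airway contrast gave 51 higher and 1 lower, genotype with the covariate 725 higher, and genotype within the airway-positive libraries 108 higher and 328 lower. Of the 72 genes named as higher, 67 lost the call. The log2 fold change of Scd4 reversed under the block, to 0.043. Counts of a few reads limit every gene under 1 CPM, and 3 airway-negative libraries, 1 of them WT, limit the airway contrast.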
